A study of Homo sapiens with 15 samples.

Results

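A stretch of the long arm of chromosome 13, 81.9 Mb long, was described gene by gene in the human breast adenocarcinoma cell line KPL4. Its members are the genes that start on chromosome 13 between positions 32400723 and 114337626 (GRCh38) and had a mean of at least 0.5 CPM (counts scaled to the size of a library) over the 15 libraries. They number 224 of the 60664 entries of the gene table, and all 224 were among the 19516 genes that passed the filter on low counts. A further 777 entries of the stretch lay under the CPM minimum, and 6 genes named by the rule were left out, 5 of which lay in the stretch and reached the minimum. The stretch was chosen by its low expression in the knockout against the control libraries. The values of that contrast, its counts of called genes included, are therefore given as a description, with no p-value. Just above the CPM minimum, LMO7-AS1, LINC00431 and ENSG00000283097 had knockout-to-control log2 fold changes of -0.99, 0.21 and -1.56. Just below it, ENSG00000274270, ENSG00000269189 and THSD1 had 0.32, 0.05 and 0.38.

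RNA was sequenced from 5 groups of 3 libraries. Control cells kept their endogenous estrogen receptor β (ERβ, encoded by ESR2 on another chromosome), the knockout group was labelled as ERβ knockout, and the add-back group was the knockout supplied with exogenous ERβ, so that every group but the control shared the knockout. The vehicle and ligand groups were add-back cells that spent 72 h without phenol red, in 1% serum stripped with charcoal, before 24 h of DMSO or of the ERβ agonist LY500307 at 200 nM. The labels give the other groups in maintenance medium, so vehicle and untreated add-back cells differ in medium, serum, time and DMSO, which cannot be told apart. The labels state neither whether the knockout was a single clone, nor how exogenous ERβ was driven, nor whether the 3 libraries of a group were separate cultures, so p-values measure the spread between libraries.

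The long arm of chromosome 13 carries the tumour suppressor RB1, the epithelial transcription factor KLF5, the microRNA host gene MIR17HG and the DLEU2 locus, which holds the microRNAs miR-15a and miR-16-1. RB1 holds back E2F factors and entry into the cell cycle, while KLF5 and the microRNAs of MIR17HG promote growth of epithelial and other cells. Many further genes of the arm serve functions that every cell uses, such as cohesion of chromosomes, nuclear import, protein turnover and lysosomes. DNA was not analysed here, so fewer gene copies and less RNA per copy cannot be told apart. In bulk RNA, fewer cells that carry a transcript and less RNA per cell cannot be told apart.

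The members also hold RNAs that act on other genes, and the microRNAs are shown because their hosts were among the lower members. MIR17HG and DLEU2 are measured here only as host transcripts, since mature microRNAs are too short for these libraries. The mature sequences below come from RefSeq (GRCh38.p14), written 5′ to 3′, with the seed (bases 2 to 8) in capitals. Those of MIR17HG lie on the plus strand from chr13:91350618-91350640 (miR-17-5p) to chr13:91351361-91351382 (miR-92a-3p), within the span of the host gene.
miR-17-5p: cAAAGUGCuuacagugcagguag
miR-20a-5p: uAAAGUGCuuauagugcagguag
miR-18a-5p: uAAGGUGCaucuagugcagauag
miR-19a-3p: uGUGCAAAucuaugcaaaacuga
miR-19b-3p: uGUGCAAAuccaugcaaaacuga
miR-92a-3p: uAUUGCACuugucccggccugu
miR-17-5p and miR-20a-5p share a seed, as do miR-19a-3p and miR-19b-3p, and miR-18a-5p and miR-92a-3p have seeds of their own. The DLEU2 pair lies on the minus strand, miR-15a-5p at chr13:50049167-50049188 and miR-16-5p at chr13:50049027-50049048, with a common seed.
miR-15a-5p: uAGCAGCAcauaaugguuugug
miR-16-5p: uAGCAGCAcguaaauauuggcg

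Promoters were searched because ERβ is a factor that binds DNA. RefSeq (GRCh38.p14) gave 255 promoter windows, from 250 bases before to 50 bases after a gene's start, for 171 of the 224 members. The full estrogen response element, spelled GGTCANNNTGACC and read on both strands, was in 0 of the 255 windows and in 20 of all 35116 windows (0.057%). A single arm of it, GGTCA or TGACC, was in 29% of the members' windows and 37.4% of all windows. This says only that these letters are not in these windows. The median GC content of the members' windows was 63.3%, against 58.7% over all windows. Shown here are the 250 bases before a start for the member furthest below control among those with at least 5 CPM (DACH1), for KLF5 at its upstream start, which holds 1 arm (in capitals), and for the member furthest above control at that level (SLITRK6). The window at the other start of KLF5 and those of DACH1, SLITRK6, MIR17HG and GPC6 hold 0 arms in these 250 bases.
DACH1, minus strand, chr13:71867205-71867454: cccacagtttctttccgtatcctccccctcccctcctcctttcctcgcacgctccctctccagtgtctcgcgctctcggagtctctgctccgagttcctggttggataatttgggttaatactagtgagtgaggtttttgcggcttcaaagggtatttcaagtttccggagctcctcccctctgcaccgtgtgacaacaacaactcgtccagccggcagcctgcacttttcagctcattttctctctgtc
KLF5, plus strand, chr13:73054726-73054975: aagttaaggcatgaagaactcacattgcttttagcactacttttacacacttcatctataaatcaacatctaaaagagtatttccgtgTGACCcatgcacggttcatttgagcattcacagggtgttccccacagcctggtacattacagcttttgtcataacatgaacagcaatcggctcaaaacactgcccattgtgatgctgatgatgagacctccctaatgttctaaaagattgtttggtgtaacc
SLITRK6, minus strand, chr13:85799420-85799669: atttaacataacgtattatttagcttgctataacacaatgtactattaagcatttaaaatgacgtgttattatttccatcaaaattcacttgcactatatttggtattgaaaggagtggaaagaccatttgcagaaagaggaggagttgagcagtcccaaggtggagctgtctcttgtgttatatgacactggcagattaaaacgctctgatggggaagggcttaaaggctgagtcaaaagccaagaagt

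Library totals ran from 12614090 to 19390424 expected counts. ESR2 had 5.75 ± 0.865 CPM in control, 4.4 ± 1.36 in knockout, 32.8 ± 1.94 in add-back, 45.1 ± 3.23 in vehicle and 43.8 ± 1.36 in ligand libraries (SD, n = 3 each), so its RNA level does not by itself tell knockout from control. The breast carcinoma markers KRT8, KRT18, KRT19, EPCAM, CDH1, ERBB2, GATA3 and TFAP2A were detected in all 15 libraries. Of 7 markers of other cells, PTPRC, CD3E, PECAM1 and COL3A1 stayed at or under 0.734 CPM, while VWF reached 10.3, COL1A1 4.41 and ACTA2 1.71 CPM.

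Most of the members were lower in knockout than in control cells, along the whole stretch. Their median log2 fold change was -0.837, with the middle 50% between -1.04 and -0.57, and their median knockout level was 55.9% of control (middle 50%, 48.4 to 67.3%). Over all genes tested the median was -0.005. By edgeR's quasi-likelihood test at an adjusted p under 0.05, 174 members were called lower and 6 higher, where 22.6% of all genes tested were called lower and 23.4% higher. Since this contrast chose the stretch, nothing is read from these counts. In 180 members (80.4%) every knockout library was below every control library, which held for 26.1% of all genes tested.

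The size of the shift was similar for most members. Between log2 fold changes of -1.2 and -0.4, a band chosen for this description after the values were seen, lay 149 members (66.5%), under -1.2 lay 33, between -0.4 and 0 lay 25, and above 0 lay 17. Only 6 members were under -2 and 6 above 1. Protein-coding members had a median of -0.862 (n = 167), non-coding RNAs other than pseudogenes -0.825 (n = 42) and pseudogenes -0.585 (n = 15). Reads of a pseudogene can be split with its parent gene by the counting, so the pseudogene values are uncertain.

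**Figure D1:**
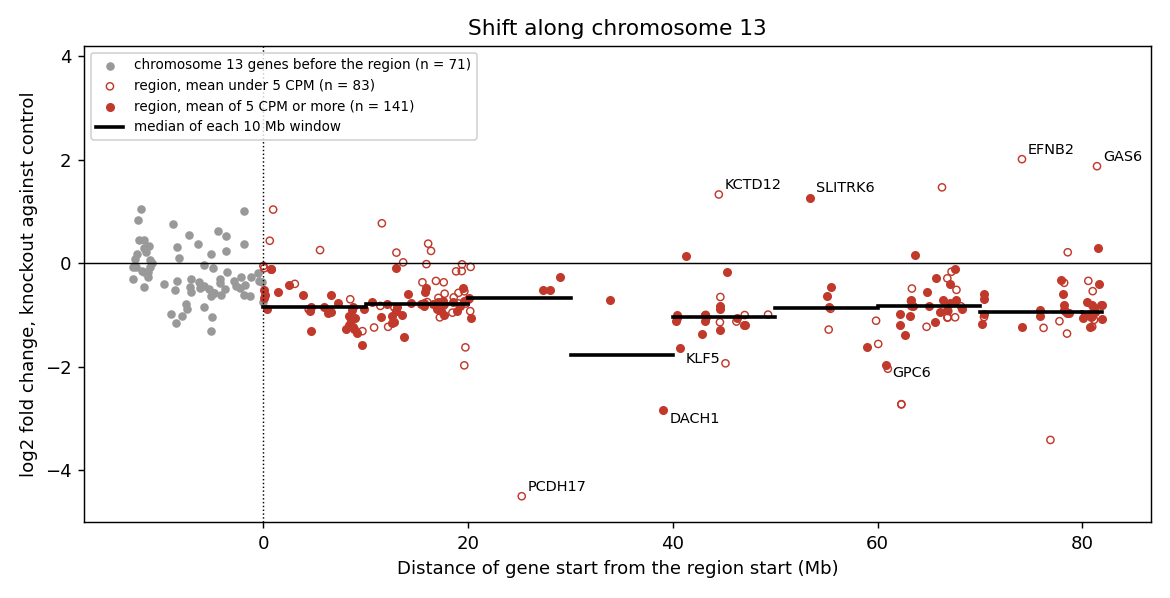
Knockout-to-control log2 fold change (y) of each chromosome 13 gene against the distance of its start from the region start in Mb (x); filled red points are the 141 members with a mean of 5 CPM or more, open red points the 83 below, grey points the 71 earlier genes, and black lines the medians of 10 Mb windows. The red points lie mostly between -1.2 and -0.4 across the region, with 4 filled points above 0.

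The shift ran through the whole stretch. In windows of 10 Mb from the start the median log2 fold changes were -0.836 (n = 38), -0.775 (n = 62), -0.669 (n = 9), -1.77 (n = 2), -1.03 (n = 25), -0.864 (n = 8), -0.829 (n = 37), -0.938 (n = 22) and -0.942 (n = 21). The fourth window holds only PCDH9 and DACH1. Across genes, log2 fold change and distance from the start had a Pearson r of -0.069 (n = 224). The 3 members nearest the start were N4BP2L1 (-0.05), N4BP2L2 (-0.67) and the pseudogene ATP8A2P2 (-0.09), which lies inside N4BP2L2. The 3 nearest the end were CDC16, a subunit of the anaphase-promoting complex (-0.80), UPF3A, of nonsense-mediated decay (-1.06), and CHAMP1, a chromosome alignment protein (-0.81).

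The genes of chromosome 13 before the stretch were less shifted. The 71 of them with at least 0.5 CPM had a median of -0.293, with 35 called lower and 7 higher, where 22.6% of all genes tested were called lower and 23.4% higher. The 21 that start before 23 Mb had a median of -0.001, and the 50 from there to the region start had -0.401. The 3 genes just outside were IFIT1P1 (-0.74), the DNA repair gene BRCA2 (-0.36) and ENSG00000279314 (-0.35). No test of this difference is given because the contrast chose the stretch.

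Expression level went with the tightness of the band. Ranked by mean CPM, the 56 highest members (30.4 to 473 CPM) were all below 0, the middle 50% spanned 0.260 on the log2 scale and the median was -0.889. In the 56 lowest (0.50 to 2.48 CPM) the middle 50% spanned 0.880 and the median was -0.788. The distance of a member's log2 fold change from the members' median had a Pearson r of -0.361 with log2 mean CPM. With log2 CPM per kb of a gene's longest annotated transcript it was -0.434 (n = 224 genes, which share the libraries). Of the 76 members with at least 20 CPM, all were below 0 and 65 lay between -1.2 and -0.4. Of the 83 under 5 CPM, 38 lay in that band. Low counts are read with more counting error, and its part in the wider spread was not tested.

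**Figure D2:**
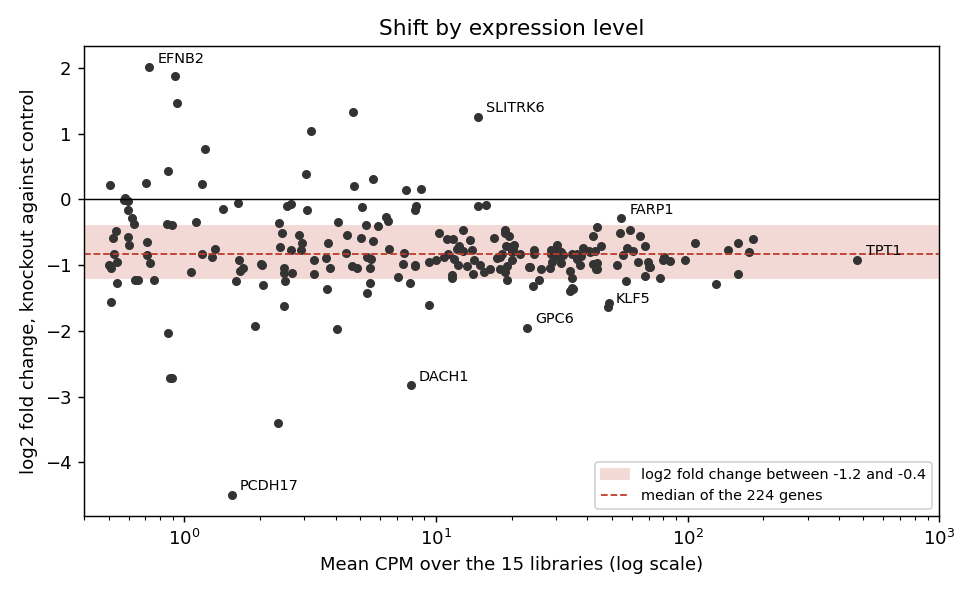
Knockout-to-control log2 fold change (y) of the 224 genes against mean CPM over the 15 libraries (x, log scale); the shaded band runs from -1.2 to -0.4 and the dashed line is the median of -0.837. The points close in on the band as the level rises, and the 76 genes with at least 20 CPM all lie below 0.

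Base composition moved with the shift as well. Log2 fold change and the GC content of a gene's longest annotated transcript had a Pearson r of 0.235 across the 224 members. The length of that transcript, on a log scale, had -0.065. The members' median GC content was 42.5%, against 47.8% for all genes tested, and their median mean level was 10.5 CPM against 11.3. With offsets that remove each library's trend on GC content and length, the members' median was -0.728.

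Most transcripts of the members were lower in knockout as well. They were counted from the same reads as the genes, and this contrast chose the stretch. Their direction was thus largely set by that choice and is no further evidence of the shift. Of 547 transcripts of members with at least 0.5 CPM, 489 (89.4%) were lower in knockout, with a median log2 ratio of -0.763. Among 111 members with 2 or more such transcripts, 78 had all of them lower, 33 had some of each and 0 had all higher. Splitting reads between transcripts is an estimate of the counting program, so single transcripts are less certain than genes.

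The most abundant members carried the shift with little spread between libraries. Per kb of a gene's longest annotated transcript, TPT1, an abundant growth-related protein, had the highest mean level of all members, 98.3 CPM per kb. TM9SF2, a protein of the endosomes and Golgi (37.6), and LAMP1, the main lysosomal membrane glycoprotein (33.4), followed. These values are too low where a shorter transcript is the main one. TPT1 had 703, 613 and 659 CPM in control, 344, 347 and 355 in knockout, 415, 434 and 432 in add-back, 497, 503 and 482 in vehicle and 457, 439 and 448 in ligand libraries. No library of another group reached the lowest control library, and the knockout libraries were the lowest 3 of the 15. TPT1 has many processed copies in the genome and an overlapping antisense gene, TPT1-AS1, so its count is uncertain to that extent.

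The other abundant members stood at 41 to 66% of control in the knockout. IPO5, a nuclear import receptor, had 282, 269 and 271 CPM in control, 127, 125 and 122 in knockout, 124, 130 and 136 in add-back, 128, 135 and 131 in vehicle and 137, 136 and 136 in ligand libraries. The 12 libraries of the other groups thus sat between 122 and 137 CPM, all below the control libraries. MYCBP2, a very large ubiquitin ligase, had 231, 233 and 238 CPM in control and 95.0, 93.3 and 98.2 in knockout libraries. PDS5B, a regulator of cohesin, stood at 65.7% of control, LAMP1 at 57.5%, N4BP2L2 at 63.1%, TM9SF2 at 58.7% and CKAP2, a spindle protein, at 62.9%.

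At the low end of the shift, among members with a mean of at least 5 CPM, stood DACH1, GPC6, KLF5, MIR17HG, DGKH, LCP1, ABCC4 and TBC1D4. DACH1, a transcriptional cofactor of the dachshund family, had 19.4, 18.1 and 17.3 CPM in control, 1.85, 2.66 and 3.12 in knockout, 9.43, 8.82 and 7.84 in add-back, 6.20, 5.28 and 4.90 in vehicle and 4.86, 4.94 and 4.80 in ligand libraries. The knockout libraries lay lowest, the add-back libraries stood between knockout and control, and no libraries of these 3 groups overlapped. Its knockout level was 13.9% of control, a log2 fold change of -2.83 ± 0.13 (SE).

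KLF5, a zinc-finger factor that drives growth in epithelia, had 88.9, 73.4 and 82.3 CPM in control, 24.5, 26.4 and 27.5 in knockout, 49.0, 52.3 and 53.8 in add-back, 47.9, 43.1 and 42.1 in vehicle and 39.2, 36.4 and 37.0 in ligand libraries. Each of these groups stood apart from its neighbour in order, with vehicle below add-back and ligand below vehicle. GPC6, a glypican of the cell surface, had 33.6, 32.4 and 32.8 CPM in control, 8.39, 9.04 and 8.13 in knockout, 32.4, 33.4 and 31.2 in add-back, 19.95, 22.6 and 20.7 in vehicle and 20.6, 20.3 and 20.04 in ligand libraries. Its add-back libraries overlapped the control libraries, and the other 3 groups lay below both.

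MIR17HG, the host of the microRNAs shown first, had 20.8, 16.7 and 18.5 CPM in control, 6.33, 5.92 and 5.99 in knockout, 7.36, 8.11 and 6.63 in add-back, 7.04, 8.48 and 6.26 in vehicle and 7.68, 8.38 and 7.27 in ligand libraries. The 4 groups other than control lay close together, at 32.6% of control in knockout and 39.5% in add-back. DLEU2 stood at 60.8% and DLEU1, its neighbour on the opposite strand, at 49.8% of control in knockout. DLEU2 and DLEU1 overlap, and the use of strand in the counting is not given in the sources used here, so reads of one can be counted for the other. DGKH, a diacylglycerol kinase, stood at 33.5%, LCP1, an actin-bundling protein, at 37.8%, ABCC4, an exporter of drugs and cyclic nucleotides, at 38.1%, and TBC1D4, a Rab GTPase-activating protein, at 39.1% of control.

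**Figure D3:**
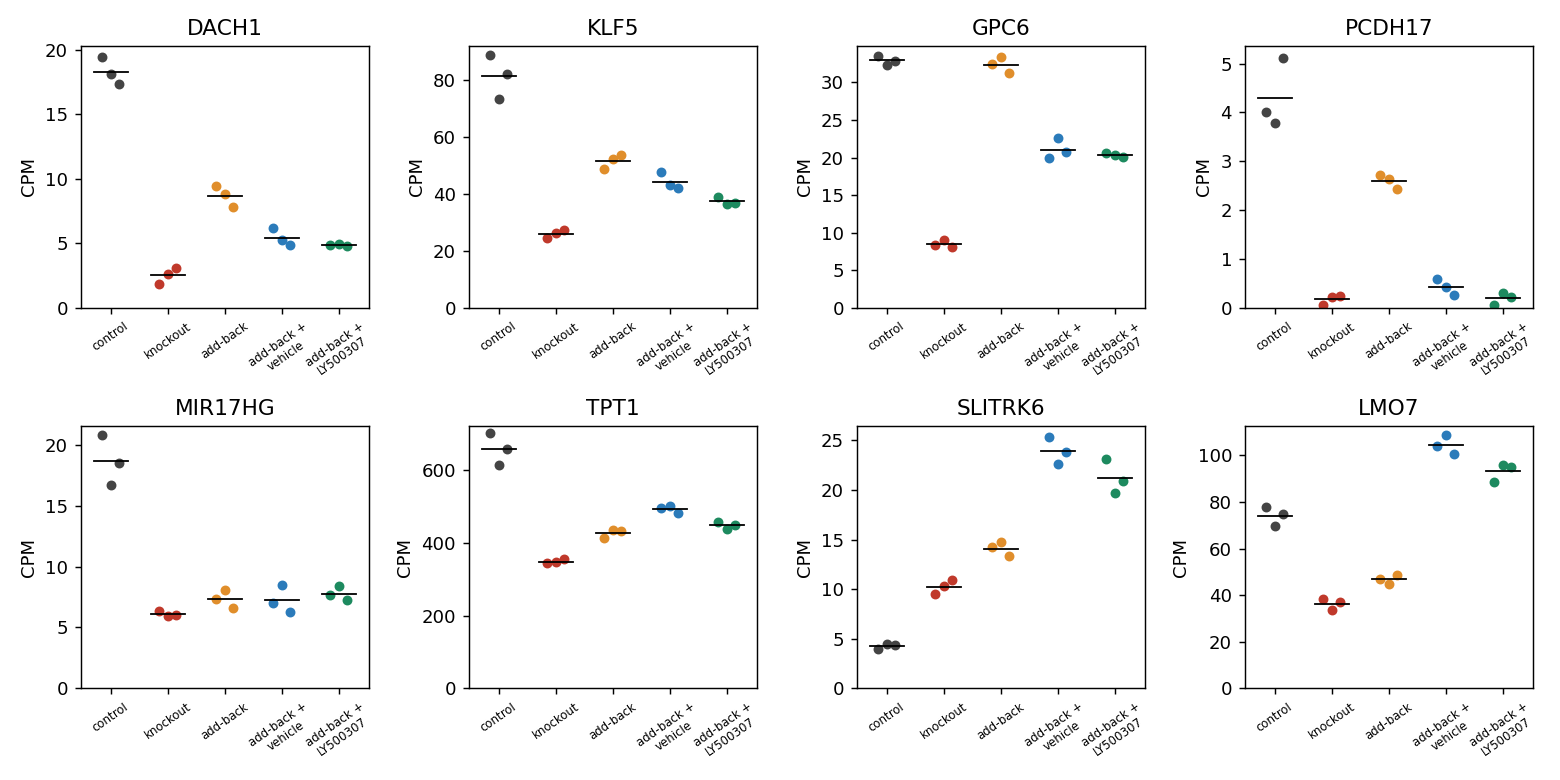
CPM (y, from 0) of 8 members in each library of the 5 groups (x); points are libraries and short lines are group means of 3. DACH1, KLF5, GPC6 and PCDH17 are higher in add-back than in knockout, MIR17HG stays at 5.92 to 8.48 CPM in all groups but control, and SLITRK6 is higher in every other group than in control.

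The exceptions were few at higher levels. Of the 141 members with at least 5 CPM, 4 were above 0: SLITRK6 (1.26), C13orf46 (0.30), HS6ST3, a heparan sulfate sulfotransferase (0.16), and KLF12, a transcriptional repressor (0.15). SLITRK6, a leucine-rich transmembrane protein of neurons and epithelia, had 4.01, 4.49 and 4.35 CPM in control, 9.53, 10.3 and 10.9 in knockout, 14.2, 14.7 and 13.3 in add-back, 25.4, 22.6 and 23.8 in vehicle and 23.1, 19.7 and 20.9 in ligand libraries. It ran against the stretch in every group, and its knockout level was 239% of control. Next in order came TPT1-AS1 (-0.09), STARD13-AS (-0.10), STARD13, a GTPase-activating protein (-0.10), and ZIC2, a zinc-finger factor (-0.11), whose knockout levels stood between 92.6 and 94.2% of control. FARP1, a guanine nucleotide exchange factor, had the smallest shift among members with at least 20 CPM, at 82.1% of control.

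Apart from DACH1 (786 counts in the control libraries together and 112 in the knockout libraries), the members under -2 rested on few reads, as did most of those above 1. PCDH17, a protocadherin, had the lowest log2 fold change (-4.50), from 187 counts in the control libraries together and 8 in the knockout libraries. LINC03061 had 151 and 14 counts (-3.41), and the transcription factor SOX21 and its neighbour SOX21-AS1 each had 28 and 4. HNRNPA1P29, a pseudogene inside GPC6, had 82 and 20. Above 1 stood EFNB2, the ligand ephrin-B2 (10 and 42 counts), GAS6, the ligand of AXL-family receptors (19 and 72), SLC15A1, a peptide transporter (19 and 54), KCTD12 (73 and 187), ENSG00000230490 (110 and 229) and SLITRK6 (185 and 448). These members, PCDH17 to ENSG00000230490, were named after their values were seen. UTP14C overlaps ALG11 on the same strand and was read at 0 in 4 libraries and at up to 12.3 CPM in others, while ALG11 stood at 60.3% of control, so its value of -1.97 is uncertain.

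Genes were then read by role, from lists drawn up with earlier results of these data known, so their direction is no independent evidence. The counts called lower are of the knockout-to-control contrast that chose the stretch, so they were largely set by that choice and describe the lists only. All 16 members for cell cycle, DNA repair and chromatin were called lower in knockout, with a median of -0.747. They include TFDP1, the partner of E2F factors (52.1% of control), PDS5B and CKAP2. RB1, the tumour suppressor, named here after its values were seen, was the least shifted of them at 72.2% of control, with 83.7, 68.9 and 79.1 CPM in control, 54.4, 57.4 and 55.5 in knockout, 56.7, 54.8 and 58.0 in add-back, 59.3, 55.9 and 52.7 in vehicle and 47.9, 53.1 and 51.9 in ligand libraries. The lowest control library of RB1 stood above all 12 others.

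Members for RNA processing had a median of -1.06, with 12 of 13 called lower, among them INTS6, of the Integrator complex (52.8% of control), RBM26 (43.6%) and ZC3H13, of the m6A methyltransferase complex, with 86.0, 85.6 and 86.1 CPM in control and 42.7, 40.8 and 45.4 in knockout libraries. Of 13 members for ubiquitin and protein turnover, 12 were called lower and 1, KCTD12, higher, with a median of -1.005. MYCBP2 stood at 40.8% of control, CUL4A, a cullin scaffold of ubiquitin ligases, at 48.9%, and TPP2, a cytosolic peptidase, at 44.4%. Of 12 members for mitochondria and metabolism, 11 were called lower, with a median of -0.855, among them SUCLA2, a subunit of succinyl-CoA ligase (57.8%), and VWA8 (39.2%). Of 21 members for the secretory pathway, lysosome and transport, 20 were called lower and 1, SLC15A1, higher, with a median of -0.836.

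Transcription factors were more spread, with 10 of 12 called lower, 0 higher and a median of -1.07. DACH1 and KLF5 marked one end, TSC22D1 stood at 57.8% of control, and ZIC2 and KLF12 stood near or above control. Of 11 members for matrix, adhesion and cell surface, 9 were called lower and 1, EFNB2, higher, with a median of -0.964. LMO7, a protein of cell junctions, stood at 49.0% of control, ITM2B at 68.0% and FREM2, a basement membrane protein, at 51.3%. Of 14 members for GTPase and kinase signalling, 11 were called lower and 1, GAS6, higher, with a median of -0.743, among them STK24, a kinase (51.8%). The 3 genes of the microRNA loci were all called lower. Over all genes tested 22.6% were called lower in this contrast.

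The shift was present in all 12 libraries of the knockout and the 3 groups derived from it. The median over members of log2(CPM + 0.5) minus the control mean was -0.780 ± 0.018 in knockout, -0.655 ± 0.030 in add-back, -0.580 ± 0.019 in vehicle and -0.602 ± 0.024 in ligand libraries (SD, n = 3 each). Single libraries ran from -0.796 to -0.760, -0.689 to -0.633, -0.600 to -0.563 and -0.627 to -0.579 in that order. The knockout libraries overlapped with no other group, nor did the add-back with the vehicle libraries, while vehicle and ligand libraries overlapped. Summed over members, the level was 7846 ± 182 CPM in control, 4257 ± 13.5 in knockout, 4771 ± 32.7 in add-back, 5102 ± 93.7 in vehicle and 4879 ± 51.3 in ligand libraries. In 143 members (63.8%) all 12 libraries were below all 3 control libraries, which held for 12.1% of all genes tested. The members' share was partly set by the choice of the stretch, which used the knockout and control libraries.

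**Figure D4:**
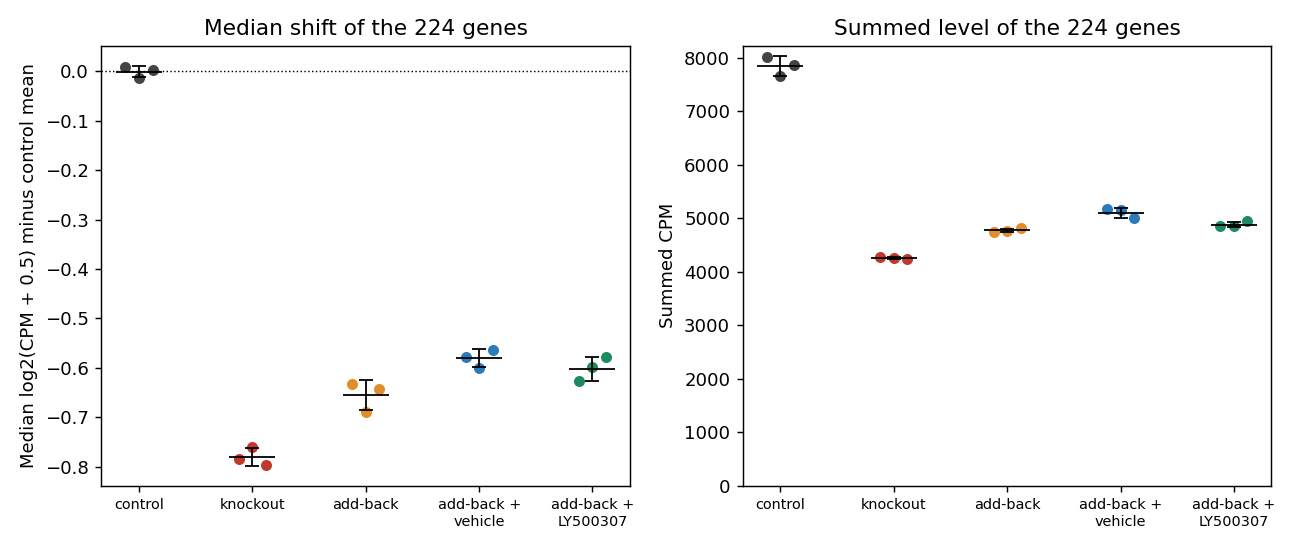
Median shift of the 224 genes against the control mean on the log2(CPM + 0.5) scale (left) and their summed CPM (right, from 0) in each library of the 5 groups; points are libraries, bars are mean and SD of 3. The knockout libraries lie between -0.796 and -0.760, and all 12 libraries of the knockout and the groups derived from it lie below the control libraries in both panels.

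Putting ERβ back left most of the shift in place. Against control, 170 members were lower in add-back cells and 2 were higher (edgeR, adjusted p under 0.05), where 22.7% and 23.2% of all genes tested were called. The median was -0.722, and the median add-back level was 60.8% of control. This comparison shares the control libraries with the one that chose the stretch, and 160 members were called lower in both. The 3 largest falls at 5 CPM or more were TBC1D4 (-1.42 ± 0.06), DGKH (-1.37 ± 0.07) and MIR17HG (-1.33 ± 0.11), and SLITRK6 rose by 1.72 ± 0.10 (adjusted p 5e-13, 1.3e-11, 1.1e-08 and 1.4e-10). The other member that rose was GAS6 (1.03 ± 0.37, adjusted p = 0.029), named after its values were seen. GAS6 was not called without control replicate 1, control replicate 3 or add-back replicate 2, which left 1 rise. IPO5 differed from control by -1.08 and MYCBP2 by -0.94 (adjusted p of 7.4e-14 and 1e-11).

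A minority of members were called higher in add-back than in knockout cells, and the median change over members was small. By the same test 55 rose and 13 fell, where 10.4% and 9.19% of all genes tested rose and fell. The median was 0.110, against -0.007 for all genes tested. These values are measured from the knockout libraries that chose the stretch. Of the 55 that rose, 54 had a log2 fold change below 0 in knockout, as had 92.4% of all members. The knockout libraries enter both contrasts with opposite sign, so a low knockout value favours a rise. Of the 55, 49 were still called lower than control and 5 were not called against control. The 5 were GPC6, ATP7B, TDRD3, SOX21 and SOX21-AS1, of which all but GPC6 are named after their values were seen.

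The 3 largest rises at 5 CPM or more were GPC6 (1.93 ± 0.07), DACH1 (1.76 ± 0.15) and KLF5 (0.98 ± 0.07), with adjusted p of 2e-13, 4.8e-08 and 9.4e-09. These are 3 of the 8 members furthest below control at that level. Of the other 5, ABCC4 rose by 0.25 ± 0.06 (adjusted p = 0.0049), and MIR17HG (0.28), LCP1 (0.28), DGKH (0.20) and TBC1D4 (-0.07) did not pass the test. GPC6 differed from control by -0.02 ± 0.05 in add-back cells (adjusted p = 0.74), DACH1 by -1.07 ± 0.11 and KLF5 by -0.66 ± 0.06. At low level PCDH17 rose by 3.77 ± 0.37 (8 to 128 counts) and LINC03061 by 2.66 ± 0.42 (14 to 102 counts), with adjusted p of 5.8e-07 and 0.00014, both named after their values were seen. The 3 largest falls at 5 CPM or more were STARD13-AS (-0.63 ± 0.14), RASA3, a Ras GTPase-activating protein (-0.61 ± 0.16), and ENSG00000276672 (-0.36 ± 0.09), with adjusted p of 0.0039, 0.01 and 0.0059. RASA3 was not called without knockout replicate 3 or add-back replicate 3 (adjusted p = 0.0563 and 0.069), nor ENSG00000276672 without add-back replicate 2 (0.0579), and the 13 falls became 7 without knockout replicate 1 or add-back replicate 3 and 8 without knockout replicate 3 or add-back replicate 2. TPT1 rose by 0.29 ± 0.04 (adjusted p = 2.3e-05), while TFDP1 (-0.06) and RB1 (0.02) did not pass the test.

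By role, most lists held rises from knockout to add-back. Of all members 24.6% rose and 5.8% fell, and of all genes tested 10.4% rose and 9.19% fell. Calls went with expression level: 51.8% of the 56 highest members rose and 8.93% of the 56 lowest. The lists differ in level, and this comparison shares the knockout libraries that chose the stretch, so no role is set apart by its count. Rises and falls were 9 and 1 of 21 for the secretory pathway, 7 and 1 of 13 for protein turnover, 5 and 0 of 12 for mitochondria, 5 and 0 of 12 for transcription factors, and 5 and 0 of 16 for cell cycle and chromatin. They were 5 and 2 of 11 for cell surface, 4 and 1 of 13 for RNA processing and 0 and 0 of 3 for microRNA loci, while GTPase and kinase signalling had 2 rises and 4 falls of 14. The medians of these lists lay between -0.020 and 0.281.

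Vehicle-treated add-back cells were compared with untreated add-back cells in libraries that the choice of the stretch did not use. These libraries did enter the mean CPM by which a gene became a member. Of the members, 70 rose and 36 fell (edgeR, adjusted p under 0.05), against 26.4% and 21.6% of all genes tested, with a median of 0.087 (0.012 over all genes). With offsets for GC content and length, 36 rose and 58 fell and the median turned to -0.046, so the direction over members depends on this correction. Without add-back replicate 2 or 3 the median was 0.042 or 0.055, and without vehicle replicate 1 or 3 it was 0.046 or 0.045. Changes of single members were large. LMO7 rose by 1.16 ± 0.05 (adjusted p = 1.6e-12), from 47.0, 44.8 and 48.7 CPM in add-back to 104, 109 and 101 in vehicle libraries, which also exceeded the control libraries of 77.8, 69.6 and 74.8. FARP1 rose by 1.16 ± 0.04 (adjusted p = 8.1e-14), from 33.3, 33.7 and 34.1 to 77.1, 74.4 and 73.9 CPM, against 47.9, 52.3 and 51.1 in control. LCP1 rose by 1.42 ± 0.16 (adjusted p = 4.5e-07), from 3.04, 3.09 and 2.42 to 7.69, 8.16 and 7.07 CPM.

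Other members fell in the vehicle group. FREM2 fell by 1.55 ± 0.06 (adjusted p = 4.3e-13), from 47.3, 46.9 and 51.2 to 16.5, 16.5 and 16.7 CPM, the lowest of the 5 groups together with the ligand libraries at 17.1, 20.02 and 18.8. DACH1 fell by 0.67 ± 0.12 and GPC6 by 0.62 ± 0.06 (adjusted p = 0.00016 and 3e-08), as did KLF5 by 0.22 ± 0.07 (adjusted p = 0.01). The 3 members with the largest rises from knockout to add-back at 5 CPM or more all fell in the vehicle group. Below that level SOX21 rose by 2.38 ± 0.35 (adjusted p = 1.2e-05) and LINC03061 (0.44 ± 0.27) did not pass the test. Both were named after their values were seen. SOX21 had 28, 4 and 17 counts in the control, knockout and add-back libraries together, and 89 and 82 in the vehicle and ligand libraries. It reached the CPM minimum with the help of the vehicle and ligand libraries, so its rise was favoured by the rule for members. The rises to add-back and the falls from it share the add-back libraries. A fall of the 3 members with the largest rises was thus favoured by that pick. PCDH17 fell by 2.57 ± 0.31 (adjusted p = 1.1e-06). MIR17HG (-0.01 ± 0.12), IPO5 (0.01 ± 0.04) and RB1 (-0.01 ± 0.06) did not pass the test. Among the 11 cell surface members 7 rose and 4 fell, where 26.4% and 21.6% of all genes tested rose and fell. The list was drawn up with earlier results of these data known, and 11 of its 19 genes were members.

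LY500307 changed few members beyond the spread between libraries. Against vehicle 1 rose and 6 fell (edgeR, adjusted p under 0.05), where 4.77% and 2.37% of all genes tested rose and fell. The median was -0.057, against -0.018 over all genes, and it was -0.032 without vehicle replicate 1. MCF2L, also a guanine nucleotide exchange factor, rose by 0.24 ± 0.05 (adjusted p = 0.012), from 31.9, 30.9 and 35.1 CPM with vehicle to 39.6, 37.1 and 38.8 with LY500307. DLEU2 fell by 0.36 ± 0.09 (adjusted p = 0.024), from 16.6, 16.1 and 16.7 to 11.98, 12.7 and 13.8 CPM. PCDH9, a protocadherin, and KLF5 each fell by 0.24 ± 0.07 (adjusted p = 0.049 and 0.041), and TPT1 fell by 0.14 ± 0.04 (adjusted p = 0.033). The other 2 that fell, GPR180 (-0.16, adjusted p = 0.039) and ARGLU1 (-0.18, adjusted p = 0.032), were named after their values were seen.

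The vehicle and ligand libraries did not overlap for MCF2L, DLEU2, KLF5 or TPT1, and overlapped for PCDH9. With the offsets for GC content and length 0 members fell by edgeR (7 at an unadjusted p under 0.05), 1 rose and the median was 0.019. That rise was not MCF2L, which was not called with these offsets (edgeR, adjusted p = 0.0712). TMM factors computed without the members gave 1 rise and 3 falls. No fall was called without vehicle replicate 1, vehicle replicate 2, ligand replicate 1 or ligand replicate 2, 2 were called without ligand replicate 3 and 4 without vehicle replicate 3. MCF2L was not called without vehicle replicate 1, vehicle replicate 2 or ligand replicate 1 (adjusted p = 0.0621, 0.0986 and 0.0562), and 2 members rose without ligand replicate 3.

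**Figure D5:**
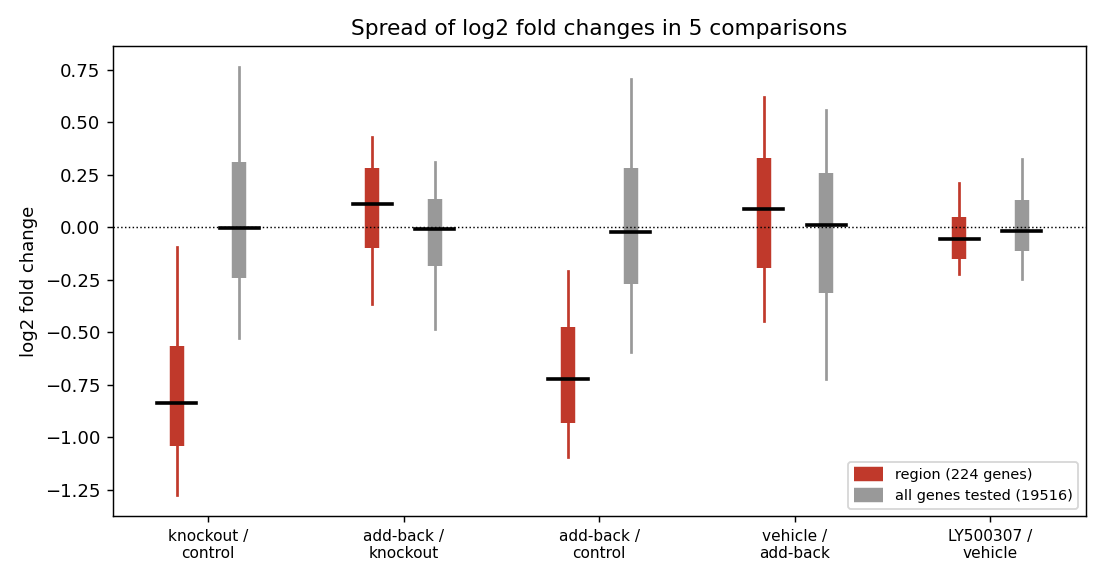
Spread of log2 fold changes (y) of the 224 members (red) and of all 19516 genes tested (grey) in the 5 comparisons (x); thick bars span the middle 50% of genes, thin lines the middle 80%, and black lines the medians. The members' bar lies below 0 in both comparisons with control (medians -0.837 and -0.722) and around 0 in the other 3 (0.110, 0.087 and -0.057).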

How the data were processed

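The 15 KPL4 libraries, 3 in each of 5 groups, were made from total RNA with a stranded kit that removes ribosomal RNA, per the labels' protocols. The authors deposited expected counts per gene and per transcript, made, per the submitters' processing notes, with FastQC and Trim Galore on the reads, then GSNAP and RSEM against GRCh38. Versions, annotation release and strand use in counting are not given in the sources used here. Expected counts were rounded to whole numbers. Positions came from GENCODE 29, which had 58396 of the 60664 gene identifiers, and sequences from RefSeq.

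The whole gene table was fitted in edgeR 4.0.16 (R 4.3.3), with filterByExpr by group, TMM factors and group means over the 15 libraries, by the quasi-likelihood F test, two-sided. Genes with an adjusted p under 0.05 (Benjamini-Hochberg, 19516 genes) were called. Log2 fold changes are given ± SE, worked back from the test as the absolute log2 fold change divided by the square root of F. Levels are CPM with TMM scaling, not corrected for length. The biological coefficient of variation was 4.99%. Replicate counts differed by 2.15 to 5.43 times counting error (chi-square per degree of freedom). Pseudocounts were 0.5 CPM.

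The members, lists and comparisons were chosen with earlier results of these data known. Named genes were, at 5 CPM or more, the 8 lowest and 8 highest in knockout and the 3 largest called rises and falls of the other comparisons, then the 8 highest in CPM, the top 3 per list, and those nearest each end and the CPM minimum. Alternatives were RLE and upper-quartile factors, TMM without the members, DESeq2 1.42.0, limma-voom 3.58.1, other filters, 6-library fits, a replicate block, GC and length offsets, and leaving out each library. The rule's 6 left-out genes, and 1 gene that the rule for named genes gives, are not reported here.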

Additional observations from a re-analysis of the deposited data

How the results depend on the processing

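In each comparison the members' median kept its direction except where stated, and 2506 of the 2737 values of single named genes stayed within the replicate spread or on their side of the threshold. With the GC and length offsets the median was -0.728 for knockout and -0.621 for add-back against control (with the replicate block as well, -0.728 and -0.623), it reversed to -0.046 (-0.047) for vehicle against add-back, with 36 (35) rises and 58 (57) falls, and to 0.019 (0.021) for LY500307 against vehicle, with 0 (0) falls and 1 (0) rises. Add-back against control then had 1 (1) rise. These offsets were estimated without the members, and the cause was not tested.

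The replicate numbers did not pair the libraries: same-number pairs had correlations of -0.0953 to 0.0602 across genes, different numbers -0.0699 to 0.098. With the replicate block alone 173 members were lower and 6 higher in knockout, 53 rose and 12 fell in add-back against knockout, and 4 fell with LY500307.

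For members of at least 5 CPM (fewer genes), knockout against control had 131 lower, 1 higher and a median of -0.862, add-back against knockout had 7 falls, and add-back against control 1 rise. For the 127 members that overlap no other, chosen after seeing the data, 103 were lower in knockout, 100 in add-back against control, 36 rose in add-back against knockout, 19 fell with vehicle and 0 rose with LY500307. DESeq2 gave 8 falls in add-back against knockout and 1 rise in add-back against control. Upper-quartile factors gave a vehicle median of 0.046. For LY500307, TMM without the members gave 3 falls, no filter 3 rises and CPM of at least 1 in 3 libraries 2 rises.

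At pseudocounts of 0.1 and 2 the library shifts were -0.829 and -0.654 in knockout, -0.707 and -0.548 in add-back, -0.642 and -0.457 in vehicle, and -0.653 and -0.484 in ligand libraries. Leaving out single libraries gave 164 to 170 lower and 6 higher in knockout (median -0.857 to -0.831). Add-back against knockout had 49 to 53 rises and 7 to 12 falls (0.104 to 0.147), and add-back against control 1 to 2 and 153 to 166 (-0.722 to -0.682). Vehicle had 51 to 62 and 34 to 39 (0.042 to 0.077), and LY500307 0 to 2 and 0 to 4 (-0.050 to -0.032).

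With the offsets (and with the block as well) TPP2 turned to -0.099 (-0.099) and CHAMP1 to -0.020 (-0.019) in vehicle against add-back, and PCDH9 to 0.013 (0.014) in add-back against control.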
